A study of Homo sapiens with 6 samples.

Results

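The enzymes of de novo purine synthesis were followed in 3 WT and 3 *FGFR2* KO cell lines of HaCaT, a spontaneously immortalized human keratinocyte line. They are 10 of the 21475 genes in the tables and were taken by gene symbol along the route from phosphoribosyl pyrophosphate (PRPP) to AMP and GMP: *PPAT*, *GART*, *PFAS*, *PAICS*, *ADSL*, *ATIC*, *IMPDH1*, *IMPDH2*, *GMPS* and *ADSS2*, which is also called *ADSS*. The study asked how FGFR2, the receptor for FGF7 and related FGFs, affects skin inflammation through human keratinocytes. To find differentially expressed genes, it sequenced poly(A)-selected, strand-specific libraries with 1 library per cell line. All lines grew in high-glucose DMEM with fetal bovine serum, and neither group received an added inflammatory stimulus. The KO lines came from Cas9 cleavage with a single sgRNA in an exon of *FGFR2*, followed by clonal expansion, so each KO library stands for 1 clone. The sequenced WT lines are given by the study as clonally expanded too. The replicate numbers used below are those of the labels, and the p-values measure only the spread between these cell lines.

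Purine nucleotides are needed for DNA and RNA synthesis, for energy transfer as ATP and for signaling by GTP-binding proteins. In the de novo route, the purine ring is built on ribose phosphate in 10 steps that 6 enzymes carry out, several of which are multifunctional proteins. The product, IMP, is the branch point: IMP dehydrogenase and GMP synthase lead to GMP, and adenylosuccinate synthase and lyase lead to AMP. The route consumes glycine, glutamine, aspartate and formyl groups from folate, and it is known to be used most by proliferating cells.

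The values are FPKM, fragment numbers corrected for gene length and sequencing depth. Comparisons between libraries also depend on how the libraries are scaled, which was varied (below). *FGFR2* was at 21.6, 39.7 and 15.0 FPKM in WT replicates 1, 2 and 3, and at 3.04, 2.26 and 4.31 FPKM in the KO replicates. Every KO library therefore lay below every WT library for the targeted gene, with a log2 fold change of -2.73 (SE 0.36, adjusted p = 0.261 by limma). The estimated depth was 67800000 to 88100000 fragments per library. Of 8 keratinocyte markers, all were expressed, with *KRT5* at 6086 to 14768 FPKM, and 0 of them had an unadjusted p of at most 0.05. Markers of other cell types ranged from 0 to 27.1 FPKM. *SOX10*, *KDR* and *CD1A* had 0 FPKM in each library, the melanocyte markers summed to 0.708 to 2.44 FPKM and the immune markers to 0.890 to 1.95 FPKM. Fibroblast markers summed to 15.3, 33.2 and 7.99 FPKM in the WT and 11.3, 12.6 and 6.92 FPKM in the KO libraries, with the highest sum in WT replicate 2, where *DCN* had 15.5 FPKM, and *COL1A1* was at 6.82 to 16.7 FPKM over all libraries. Endothelial markers summed to 18.1, 24.4 and 27.2 FPKM in the WT and 17.5, 16.0 and 5.82 FPKM in the KO libraries, most of it *VWF*. *CDH5* had 4.92 FPKM in WT replicate 2 and 0 to 0.13 FPKM in the other libraries. The part of these marker levels in the results was not tested.

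Each of the 10 enzyme genes had a higher mean in the KO than in the WT lines, by 1.16-fold for *ADSS2* to 2.55-fold for *PPAT*. For 9 of the 10, every KO library lay above every WT library, an arrangement found in 18.3% of all 12241 genes tested. The exception was *ADSS2*. On log2(FPKM + 0.5), 8 of the 10 were higher by at least 0.5 with an unadjusted p of at most 0.05 in limma's moderated test, against 10.2% of all genes tested. However, no gene reached an adjusted p of 0.05: 0 of the 10 and 0 of 12241 genes were called (0%) by limma with Benjamini-Hochberg adjustment, while 1251 genes were higher and 285 lower (2.33%) at the unadjusted p with the same minimum difference. The smallest adjusted p of any gene was 0.261, which was also the adjusted p of those 8 enzyme genes. The study, which used the count model DESeq2 on these lines, did report differentially expressed genes at a false discovery rate of at most 0.05. *FGFR2* was strongly lower among them, and purine metabolism was among the enriched pathways. With limma on FPKM, *FGFR2* was not called either, so 0 calls do not mean that no gene differs. The median log2 fold change was 0.998 for the 10 genes and 0.09 for all genes tested, and 60.6% of all genes tested had a higher mean in the KO. In RNA from whole cultures, a larger share of cells that use the route and more RNA per cell cannot be told apart.

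The first step, the transfer of an amino group from glutamine to PRPP, is the committed and feedback-regulated step of the route and is catalyzed by the product of *PPAT* (ENSG00000128059, chromosome 4 from 56393362 to 56435615, minus strand; coordinates are GRCh38 throughout). *PPAT* was at 2.78, 3.32 and 3.24 FPKM in WT replicates 1, 2 and 3 and at 6.83, 4.78 and 12.2 FPKM in KO replicates 1, 2 and 3. The WT values were close together and the KO values spread over a 2.56-fold range, with no overlap. The means were 3.11 ± 0.290 FPKM in the WT and 7.95 ± 3.85 FPKM in the KO (SD, n = 3 in each). The log2 fold change was 1.13 (SE 0.31, 95% interval 0.41 to 1.86, adjusted p = 0.261 by limma). Although *PPAT* had the lowest level of the 10 genes in all 6 libraries, its WT values corresponded to 225 to 232 fragments per kilobase.

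*GART* (ENSG00000159131, chromosome 21 from 33503931 to 33543491, minus strand) encodes a protein with 3 activities, for steps 2, 3 and 5, one of which uses formyl-tetrahydrofolate. It was at 39.9, 30.7 and 62.3 FPKM in the WT and at 86.6, 82.1 and 148 FPKM in the KO libraries. WT replicate 3 was 2.03-fold above WT replicate 2, and the lowest KO library was still 1.32-fold above the highest WT library. The log2 fold change was 1.25 (SE 0.31, interval 0.52 to 1.98, adjusted p = 0.261 by limma), at rank 92 of the 12241 genes ordered by log2 fold change from the highest. When the median of each chromosome was subtracted in each library, a variation chosen after the data had been seen, the value for *GART* was 0.85. *SON* overlaps *GART* on the opposite strand and had 72.9 to 98.1 FPKM in the WT and 94.2 to 113 FPKM in the KO libraries.

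*PFAS* (ENSG00000178921, chromosome 17 from 8247618 to 8270491, plus strand) encodes the amidotransferase of step 4. Its values were 17.7, 16.5 and 15.8 FPKM in the WT and 29.9, 29.7 and 60.1 FPKM in the KO. The WT libraries and KO replicates 1 and 2 each formed a narrow group, and KO replicate 3 was 2.02-fold above the mean of the other KO libraries. For *PFAS* the log2 fold change was 1.15 (SE 0.27, interval 0.52 to 1.79). *CTC1*, on the opposite strand, overlaps the gene and was at 7.28 to 12.3 FPKM in the WT and 9.72 to 14.1 FPKM in the KO.

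*PAICS* (ENSG00000128050, chromosome 4 from 56435741 to 56464578, plus strand) encodes the carboxylase and synthetase of steps 6 and 7. Its 3 WT libraries had 28.5, 23.0 and 37.2 FPKM and its KO libraries 57.8, 52.4 and 112 FPKM. The groups were separate, with means of 29.6 ± 7.18 and 74.0 ± 32.9 FPKM (SD, n = 3 in each), a 2.50-fold difference. The log2 fold change was 1.25 (SE 0.31, interval 0.53 to 1.97), at rank 94.

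*ADSL* (ENSG00000239900, chromosome 22 from 40346461 to 40390463, plus strand) encodes adenylosuccinate lyase, which acts in step 8 and again in the AMP branch. The WT libraries were nearly identical, with 14.0, 14.5 and 14.1 FPKM, and the KO libraries had 20.7, 20.1 and 38.3 FPKM. Again KO replicates 1 and 2 were alike and both above the WT, whereas KO replicate 3 was 1.87-fold above their mean. A log2 fold change of 0.80 resulted for *ADSL* (SE 0.25, interval 0.23 to 1.38). *SGSM3* overlaps *ADSL* on the same strand and was at 22.6 to 32.1 FPKM in the WT and 24.6 to 27.4 FPKM in the KO.

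*ATIC* (ENSG00000138363, chromosome 2 from 215311956 to 215349773, plus strand) encodes the formyltransferase and cyclohydrolase of steps 9 and 10, which close the ring and give IMP. It was at 41.4, 46.5 and 55.9 FPKM in the WT and at 99.3, 74.1 and 155 FPKM in the KO. *ATIC* was the most abundant of the 10 transcripts in KO replicates 1 and 3. Its log2 fold change was 1.12 (SE 0.27, interval 0.50 to 1.75).

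*PPAT* and *PAICS* are divergent neighbours, so that the first enzyme and the enzyme of steps 6 and 7 start from opposite strands of the same short region. In the GENCODE annotation, 125 bases lie between their starts. They are printed below from the plus strand because both genes were higher in the KO and share this sequence; capitals mark GGGCGG, the letters of the GC box. Also printed are the places in the promoter windows of the 10 genes that hold CACGTG, the E-box letters that MYC and MAX bind, in capitals with 10 bases on either side. The windows, from the RefSeq promoter table (GRCh38.p14), cover 250 bases before and 50 bases after an annotated start, and 8 of the 10 genes had at least 1 window, 13 in all.
*PPAT*-*PAICS*, between the starts, chr4:56435616-56435740, plus strand: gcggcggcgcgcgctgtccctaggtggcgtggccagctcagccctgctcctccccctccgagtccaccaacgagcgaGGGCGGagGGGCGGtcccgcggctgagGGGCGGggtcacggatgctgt
*ATIC*, chr2:215312003-215312028, plus strand: gccggcgggcCACGTGataagcccgg
*ATIC*, chr2:215312078-215312103, plus strand: cctacctgcgCACGTGgtgccgccgc
*PPAT*, chr4:56435782-56435807, minus strand: cggagatttcCACGTGcagcaaatac

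The sequence between the *PPAT* and *PAICS* starts was 76% G or C and held GGGCGG at 3 places. CACGTG, which reads the same on both strands, occurred in 3 of the 13 windows, 1 each of *ATIC*, *PAICS* and *PPAT*, and in 7.26% of all 35116 windows. In *ATIC* it began 46 bases before and 29 bases after the RefSeq start. The *PPAT* and *PAICS* windows overlap and share a single CACGTG, 182 bases before the RefSeq start of *PPAT* and 40 bases after the RefSeq start of *PAICS*. GGGCGG on either strand, counted after the data had been seen, was present in 10 of the 13 windows and for each of the 8 genes, and in 45% of all windows. These matches describe the letters only, and binding was not measured here. The part of the shared sequence in the levels of *PPAT* and *PAICS* was not tested. Their log2 fold changes (1.13 and 1.25) were near those of *GART*, *PFAS* and *ATIC* on other chromosomes (1.25, 1.15 and 1.12). Those of *ADSL*, *IMPDH1*, *IMPDH2*, *GMPS* and *ADSS2* were lower. The ratio of *PAICS* to *PPAT*, both in FPKM, was 10.3, 6.93 and 11.5 in the WT and 8.47, 10.9 and 9.15 in the KO libraries. On the log2 scale it differed by 0.02 (SD 0.38 in the WT and 0.19 in the KO, n = 3 in each; exact two-sided permutation p = 1).

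In the branch to GMP, IMP dehydrogenase is the rate-limiting enzyme and the target of mycophenolic acid, and 2 genes encode it. *IMPDH1* (ENSG00000106348, chromosome 7 from 128392277 to 128409986, minus strand) was at 48.8, 32.4 and 56.4 FPKM in the WT and at 72.8, 58.8 and 84.2 FPKM in the KO. The groups did not overlap, but KO replicate 2 was only 1.04-fold above WT replicate 3. The log2 fold change was 0.67 (SE 0.23, interval 0.12 to 1.21), and the unadjusted p exceeded 0.05 without WT replicate 2, without KO replicate 1 or without KO replicate 3.

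*IMPDH2* (ENSG00000178035, chromosome 3 from 49024325 to 49029447, minus strand) encodes the isoform that is usually described as the one induced in proliferating cells. Its values were 44.6, 44.2 and 49.4 FPKM in the WT and 55.8, 51.0 and 85.9 FPKM in the KO. The lowest KO library was 1.03-fold above the highest WT library, and the groups overlapped with median-of-ratios scaling or quantile normalization. This gave a log2 fold change of 0.44 in limma (SE 0.21, interval -0.04 to 0.92, adjusted p = 0.320). The ratio of *IMPDH2* to *IMPDH1* was 0.915, 1.36 and 0.875 in the WT and 0.767, 0.867 and 1.02 in the KO libraries. Its log2 difference of -0.23 was smaller than the SD of 0.35 between WT libraries (KO SD 0.21, exact two-sided permutation p = 0.4).

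*GMPS* (ENSG00000163655, chromosome 3 from 155870650 to 155944020, plus strand) encodes GMP synthase, which aminates XMP to GMP. It was at 20.3, 18.6 and 25.8 FPKM in the WT and at 35.8, 29.6 and 58.2 FPKM in the KO, without overlap. Its log2 fold change was 0.87 (SE 0.26, interval 0.27 to 1.47).

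*ADSS2* (ENSG00000035687, chromosome 1 from 244408494 to 244451909, minus strand) encodes adenylosuccinate synthase, the first enzyme of the AMP branch. Its WT libraries had 60.7, 58.3 and 70.8 FPKM and its KO libraries 71.1, 61.0 and 88.4 FPKM. KO replicate 2 lay between the WT libraries, and the exact two-sided permutation p of 0.2 compares with 0.1, the smallest that 3 libraries against 3 can give and the value of the other 9 genes. Limma gave a log2 fold change of 0.20 (SE 0.17, interval -0.19 to 0.60, adjusted p = 0.552). Along the route, the log2 fold changes were therefore 0.80 to 1.25 (median 1.14) for the 6 genes from PRPP to IMP, 0.44 to 0.87 (median 0.67) for the 3 genes from IMP to GMP, and 0.20 and 0.80 for *ADSS2* and *ADSL* from IMP to AMP. The difference between these groups of steps was not tested.

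**Figure D1:**
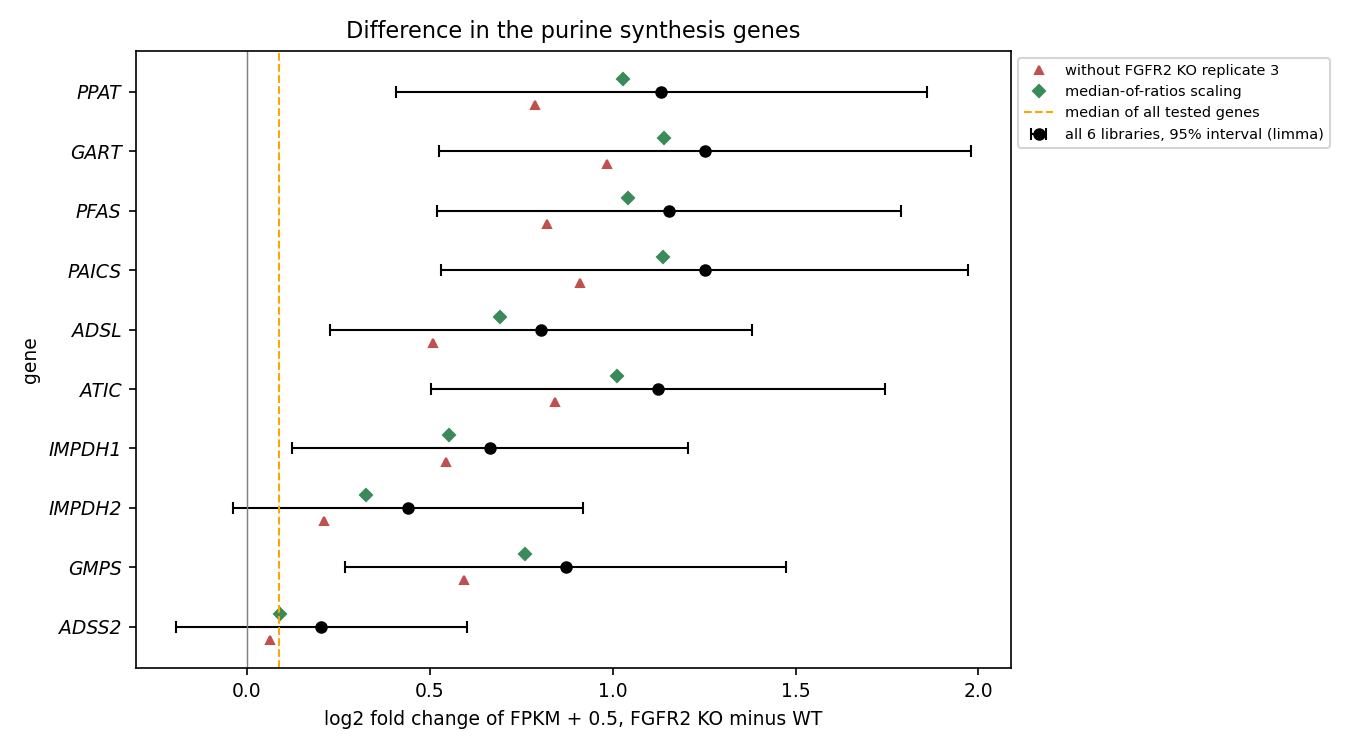
Log2 fold change of FPKM + 0.5 (KO minus WT) of each gene from limma, with its 95% interval (black), the value without KO replicate 3 (red triangle), the value with median-of-ratios scaling (green diamond) and the median of all genes tested (dashed line, 0.09). The intervals of *IMPDH2* and *ADSS2* include 0, and each gene stays above 0 without KO replicate 3 (0.06 for *ADSS2* to 0.98 for *GART*).

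The KO libraries differed from each other as well as from the WT. KO replicate 3 had the highest value of the 6 libraries for each of the 10 genes, as it had for 38.7% of all genes tested. KO replicate 1 was above KO replicate 2 for each of the 10. The median difference of the 10 genes from their WT means was 0.78, 0.52 and 1.56 on the log2 scale in KO replicates 1, 2 and 3. For all genes tested, these medians were 0.10, 0.05 and 0.15. Among the WT libraries, the corresponding medians of the 10 genes were -0.05, -0.08 and 0.20, and WT replicate 3 had the highest WT value for 7 genes. KO replicates 1 and 2 were each above all WT libraries for 9 genes (19.7% of all genes tested), and their mean was 1.04-fold (*ADSS2*) to 1.91-fold (*GART*) that of the WT. Without KO replicate 3, the median log2 fold change was 0.69, the adjusted p of the 10 genes in limma was 0.573 to 0.927 and 7 genes were higher at the unadjusted p, against 4.4% of all genes tested in that comparison.

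The order of the KO libraries was the reverse of that of the mitochondrial share of the FPKM, which was 27.6%, 21.5% and 22.2% in the WT and 15.8%, 23.7% and 11.9% in the KO libraries. The WT libraries did not follow this order. WT replicate 2 had the lowest WT share and also the lowest summed FPKM of the 10 genes (319, 288 and 391 in WT replicates 1, 2 and 3). The part of the mitochondrial share in these levels was not tested. When the libraries were scaled to the sum of their nuclear genes, 9 of the 10 genes still had every KO above every WT library, KO replicate 3 remained the highest for each gene, and the log2 fold changes were 0.12 to 1.17. KO replicate 1 was then above KO replicate 2 for 7 genes and below it for *PFAS* (28.5 against 30.9 FPKM), *GART* (82.6 against 85.7 FPKM) and *ADSL* (19.8 against 21.0 FPKM). With this scaling, the split of all genes at the unadjusted p was 930 higher and 400 lower. With median-of-ratios scaling it was 785 higher and 521 lower, the median of all genes tested moved from 0.09 to -0.02, and the median of the 10 enzyme genes was 0.89.

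By level, *PPAT* ranked lowest and *ADSL* next to it in all 6 libraries, whereas the order at the top differed between the groups. *ADSS2* was the most abundant in each WT library (63.3 ± 6.60 FPKM, SD, n = 3) and lay above *ATIC* without overlap. *ATIC*, *IMPDH2*, *IMPDH1*, *GART*, *PAICS* and *GMPS* followed with mean levels from 48.0 to 21.6 FPKM, and the ranges of neighbours in this order overlapped. *PFAS*, *ADSL* and *PPAT* came last, each separate from its neighbour. In the KO, *ATIC* (109.3 ± 41.2 FPKM) and *GART* (105.6 ± 36.8 FPKM) were at the top, *ADSS2* ranked 3 or 4, and only *ADSL* and *PPAT* did not overlap as neighbours. *ADSS2* made up 19.0%, 20.2% and 18.1% of the summed FPKM of the 10 genes in the WT and 13.3%, 13.2% and 10.5% in the KO libraries. The share of *IMPDH2* was 14.0%, 15.3% and 12.6% in the WT and 10.4%, 11.0% and 10.2% in the KO, whereas that of *GART* was 12.5%, 10.7% and 15.9% against 16.1%, 17.7% and 17.6%, and that of *PAICS* 8.94%, 7.98% and 9.52% against 10.8%, 11.3% and 13.3%. For these 4 genes the shares of the groups did not overlap, and the shares of the other 6 overlapped. The exact two-sided permutation p was 0.1 for each of the 4, the smallest that 3 libraries against 3 can give. The shares of a library have a fixed sum, so a rise in some requires a fall in others. The mean FPKM of *ADSS2* (63.3 and 73.5) and of *IMPDH2* (46.1 and 64.2) was lower in the WT than in the KO.

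Genes of the neighbouring reactions were examined in 4 lists with 51 genes, of which 44 passed the minimum mean of 0.5 FPKM. The KO mean was the higher for 35 of the 44, against 60.6% of all genes tested. At the unadjusted p, 14 were higher and 2 lower, against 10.2% and 2.33% of all genes tested. Every KO library was above every WT library for 14 and below for 3, against 18.3% and 5.77% of all genes tested. The same shares apply to each list below with all 6 libraries. With 1 library left out, the share of all genes tested that was higher at the unadjusted p was different. It was 6.27%, 8% and 12.3% without WT replicates 1, 2 and 3. Without KO replicates 1, 2 and 3 it was 10%, 14.3% and 4.4%. These shares belong beside the list counts below that leave out the same library. Limma called 0 of the 44 after adjustment. PRPP itself is made by the PRPP synthetases: *PRPS1* was at 19.0, 19.0 and 24.0 FPKM in the WT and 33.5, 39.5 and 70.6 FPKM in the KO (log2 fold change 1.12, SE 0.27), and *PRPS2* had a log2 fold change of 0.65 (SE 0.20), both without overlap. *PRPSAP2*, which encodes a protein associated with the synthetase, overlapped between the groups (0.21, SE 0.15). Thus 2 of 4 genes of PRPP supply were higher at the unadjusted p, with a median of 0.43 (1 gene without KO replicate 3).

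The folate enzymes that provide formyl groups for GART and ATIC were higher at the unadjusted p for 4 of 8 tested genes, with a median log2 fold change of 0.64. This count was 1 without WT replicate 1, without WT replicate 2 or without KO replicate 3 and 2 without KO replicate 1, and the median was 0.41 without WT replicate 2. The cytosolic trifunctional enzyme *MTHFD1* was at 50.5, 44.2 and 64.3 FPKM in the WT and 77.4, 90.2 and 126 FPKM in the KO (0.86, SE 0.22). The mitochondrial enzymes *MTHFD1L* (1.43, SE 0.49) and *MTHFD2* (0.84, SE 0.32) overlapped between the groups, because KO replicate 2 was below WT replicate 3 for both.

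The interconversion of purine nucleotides, with 18 tested genes, had 5 higher and 2 lower at the unadjusted p and a median of 0.15. Without KO replicate 3, 2 were higher and 0 lower, without WT replicate 1, 3 were higher and 1 lower, and without WT replicate 2, 4 were higher and 0 lower with a median of 0.24. Without WT replicate 3 the median was 0.22. *NME1*, a nucleoside diphosphate kinase, had a log2 fold change of 1.23 (SE 0.30), *AMPD2*, which deaminates AMP to IMP, 0.71 (SE 0.20), and *NME2* 0.64 (SE 0.20). *NME1* and *NME2* are neighbours of similar sequence, and whether reads were assigned to the wrong one of them was not examined. For salvage and breakdown, 3 of 14 tested genes were higher at the unadjusted p, 5 had every KO above every WT library, and the median was 0.24. The count of 3 became 1 without WT replicate 1 or without KO replicate 3 and 6 without KO replicate 2, where the median was 0.40. *ADA*, which deaminates adenosine, was at 0.764, 1.01 and 1.23 FPKM in the WT and 2.74, 3.80 and 4.68 FPKM in the KO (1.48, SE 0.25). *HPRT1*, which salvages hypoxanthine and guanine with PRPP, had a log2 fold change of 0.74 (SE 0.24), and *PNP*, which splits purine nucleosides, 0.48 (SE 0.19).

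**Figure D2:**
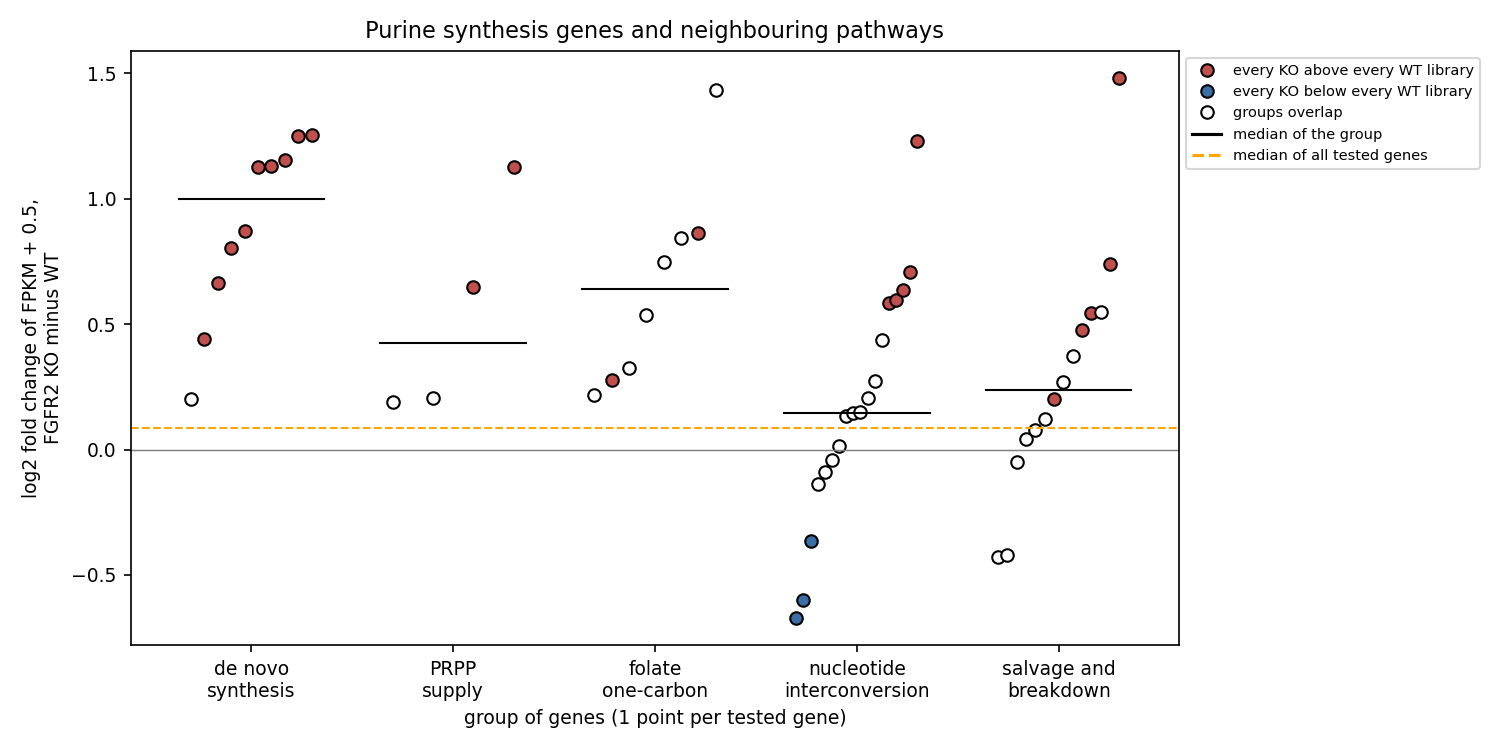
Log2 fold change of FPKM + 0.5 (KO minus WT) of each tested gene for de novo synthesis and 4 neighbouring groups of genes, with 1 point per gene, ordered by value within a group (red, every KO above every WT library; blue, every KO below; white, overlap). The black line is the median of the group, from 0.15 for interconversion to 0.998 for de novo synthesis, and the dashed line the median of all genes tested (0.09).

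*MYC*, a transcription factor known to act on genes of nucleotide synthesis, was at 18.6, 29.3 and 25.2 FPKM in the WT and 44.1, 29.3 and 57.7 FPKM in the KO (log2 fold change 0.80, SE 0.27, adjusted p = 0.261 by limma). KO replicate 2 and WT replicate 2 had almost the same level. *MYC* was higher at the unadjusted p, but not without WT replicate 1, without KO replicate 1 or without KO replicate 3. *ATF4*, a regulator of amino acid and folate metabolism, overlapped between the groups (0.17, SE 0.19, adjusted p = 0.670 by limma). Of 16 proliferation genes, 9 were higher at the unadjusted p, against 10.2% of all genes tested (6 without KO replicate 3, against 4.4%). The median of the list was 0.88. *MCM3* (0.94, SE 0.22), *MCM2* (1.25, SE 0.31) and *MCM6* (1.56, SE 0.40), subunits of the replicative helicase, were each higher in every KO than in every WT library. The other 6 were *MCM4*, *MCM5*, *MCM7*, *PCNA*, *RRM2* and *TYMS*. For the 7 genes of the list that did not pass, *MKI67*, *CDK1*, *CCNB1*, *AURKA*, *BUB1*, *TOP2A* and *CCNA2*, which are known for roles in G2 and mitosis or as a marker of cycling cells, log2 fold changes were -0.40 to 0.03 and the groups overlapped. These genes outside the rule for named genes were listed after their values had been seen, and the part of *MYC* and of proliferation in the levels of the purine enzymes was not tested. In medium with serum, the study itself found that WT and KO lines did not differ in proliferation rate, viability or senescence.

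Among the 5 genes whose pattern over the 6 libraries was most like the mean of the 10 enzyme genes were *PDF*, *CCT2*, *NEU3* and *COLGALT1*. Likeness was measured as the root mean square difference of log2 values after each gene's mean had been subtracted, over the 6 libraries, which differ in depth and are used as scaled by the authors. It was 0.052 for *PDF*, a mitochondrial peptide deformylase, 0.059 for *CCT2*, a chaperonin subunit, 0.060 for *NEU3*, a sialidase, and 0.065 for *COLGALT1*, a collagen galactosyltransferase. The median of all genes tested was 0.522. Among the 10 genes, which make up the mean themselves, the measure ran from 0.041 for *GMPS* to 0.365 for *ADSS2*.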

How the data were processed

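The authors trimmed reads with fastp 0.20.0 and pseudoaligned them with Kallisto 0.46.1 to GRCh38 with GENCODE 37 gene models. The deposited values are FPKM per gene and library, and how they were calculated is not given in the sources used here. Each table had 21493 rows, from which 18 Y copies of pseudoautosomal genes were removed. Symbols and positions came from GENCODE 44, for 21400 genes. Depth was estimated from the steps between low values. Of 4828 such values of genes with a single transcript, 66.8% were whole fragments within 0.02 (4% by chance), so whole reads were not recovered and count models, which the study used, were not run.

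Genes whose mean over the libraries reached 0.5 FPKM were compared on log2(FPKM + 0.5) with limma 3.58.1 in R 4.3.3 (mean-variance trend, Benjamini-Hochberg adjustment over 12241 genes, thresholds of 0.05 for p and 0.5 for the absolute log2 fold change). The added 0.5 makes fold changes of low genes too small. Ratios and single genes were compared with exact permutation tests. Pseudogenes of *PPAT*, *PAICS*, *IMPDH1* and *GMPS* are annotated but have no FPKM values here, and reads shared with them could affect these levels. A further protein-coding gene overlaps *ADSL* on the same strand (ENSG00000284431, 0.14 to 0.48 FPKM). Another overlaps *IMPDH2* on the same strand (ENSG00000290315, without FPKM values).

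Named genes are the 10 enzymes, *FGFR2*, the 3 tested genes with the smallest p in each list and the 5 genes of most similar pattern, 1 of which is not reported here. Any other gene was chosen after its values had been seen. The enzymes and lists were chosen with earlier results of these data known. Alternatives were pseudocounts of 0.1 and 1, no minimum or a minimum mean of 2 FPKM, TPM, nuclear, median-of-ratios and quantile scaling, robust or trend-free variance estimates, library weights, a replicate block and leaving out each library. Removal of chromosome medians was added after the data had been seen.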

Additional observations from a re-analysis of the deposited data

How the results depend on the processing

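Each of the 10 enzyme genes kept a higher mean in the KO under the 19 alternatives, and the median log2 fold change of the 10 was 0.69 without KO replicate 3 to 1.20 without KO replicate 2. The number called was 0 except with library weights, which called 1396 genes and 8 of the enzymes (adjusted p from 0.0313 to 0.0480 in limma) and gave 495 genes lower at the unadjusted p. That fit gave WT replicate 1 a weight of 10.3 against 0.358 and 0.818 for the other WT libraries. Over all genes, 785 were higher and 521 lower with median-of-ratios scaling, 806 and 500 with quantile normalization, and 798 and 461 with chromosome medians removed. Leaving out 1 library gave 539 (without KO replicate 3) to 1752 (without KO replicate 2) genes higher, 94 (without KO replicate 3) to 510 (without KO replicate 2) lower, and 5 (without KO replicate 3) to 16 neighbour genes higher. Without WT replicate 1, 767 genes and 7 neighbour genes were higher. Without WT replicate 2, 9 neighbour genes were higher and 162 genes lower, and without WT replicate 3, 443 genes were lower. The log2 difference of the *PAICS* to *PPAT* ratio changed sign without WT replicate 2 (-0.20) and without KO replicate 2 (-0.09), within a range of -0.20 to 0.17, and that of *IMPDH2* to *IMPDH1* was -0.35 to -0.03. The cause of these differences was not tested.

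With the replicate number as a block, 0 genes were called in limma (smallest adjusted p = 0.0972), 1336 were higher and 426 lower at the unadjusted p, and 8 enzymes were among the higher. In this fit the adjusted p of the 10 enzyme genes in limma was 0.0972 to 0.493. The study's methods name no block, so the numbers were not treated as pairs. Deviations of libraries with the same number had correlations of -0.21, 0.22 and 0.05. Those of WT and KO libraries with different numbers ran from -0.37 to 0.29. Depth did not limit the enzyme genes, of which *PPAT*, the lowest, had 225 to 1062 fragments per kilobase.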

Other observations

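In 3 genes of purine interconversion the KO mean was below the WT mean without overlap, unlike in the enzymes of synthesis. They were chosen after their values had been seen. *AK9*, an adenylate kinase, was at 4.92, 5.66 and 4.98 FPKM in the WT and 3.27, 4.09 and 2.55 FPKM in the KO (log2 fold change -0.60, SE 0.20, adjusted p = 0.261 by limma). *AMPD3*, an AMP deaminase isoform, was at 22.4, 31.7 and 21.0 FPKM in the WT and 18.7, 18.7 and 10.1 FPKM in the KO (-0.67, SE 0.27, adjusted p = 0.285 by limma), whereas *AMPD2* of the same family was higher in every KO library. *GMPR2*, which reduces GMP back to IMP, was at 46.3, 69.2 and 43.2 FPKM in the WT and 40.4, 40.5 and 39.4 FPKM in the KO (-0.36, SE 0.19, adjusted p = 0.363 by limma). Non-overlap in this direction was found in 5.77% of all genes tested. *ADSS1*, the second gene for adenylosuccinate synthase, was low in both groups, with 0.832 to 1.54 FPKM in the WT and 0.854 to 1.64 FPKM in the KO.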
